A study of Mus musculus with 6 samples.

Results

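Lcn2, Wfdc2, Wfdc18, Clu, Slpi, Cp, Muc1, Trf and Ltf encode products that mammary epithelium and other mucosal epithelia secrete or shed, several of which also belong to the acute-phase response. These 9 genes, out of 41388 Ensembl genes in the count tables, were followed by RNA-seq in tumor-initiating cells (TICs) and in the remaining tumor cells of the same mouse model. They were taken by symbol from the raw counts, and all 9 were found and passed the filter on low counts. TICs were CD24+CD90+CD45- cells. The comparison group, non-CD24+CD90+ tumor cells (control cells below), held CD45- cells negative for CD24, CD90 or both by the study's methods, whereas the series description calls it CD24-CD90-. Both groups were sorted from primary mammary tumors of 12-week-old female FVB/N-TgN(MMTVPyVT)634Mul/J mice, untreated, whose polyoma middle T antigen is under the MMTV promoter, active in mammary epithelium. Each group had 3 samples, each pooled from 4 sorts of tumors from 4 mice, with 12 mice in all. If it counts both, the pools of TICs and of control cells shared mice, which is not stated in the sources used here. The sort was made on surface markers, so that other CD45- cells of the tumor could enter both gates.

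Secretory epithelium releases small antimicrobial and protease-inhibiting proteins together with metal carriers, and the involuting, inflamed or transformed mammary gland is known for making many of them. In the acute-phase response, cytokines such as IL-6 and IL-1 act through STAT3, NF-kappaB and C/EBP factors and raise the transcription of such genes in liver and in epithelia. Lipocalin 2 (Lcn2) binds iron-loaded bacterial siderophores, lactoferrin (Ltf) and transferrin (Trf) bind iron directly, and ceruloplasmin (Cp) is a copper-carrying ferroxidase. SLPI is an inhibitor of neutrophil serine proteases, and WFDC2 and WFDC18 share its four-disulfide WAP fold. Clusterin (Clu) is an extracellular chaperone, and mucin 1 (Muc1) is a membrane mucin whose ectodomain is shed.

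Promoter sequences are shown for 3 of the abundant genes whose windows hold letters of a C/EBP-like motif or a TATA box. Cp, which is abundant too and holds letters of both, is not shown. RefSeq windows (GRCm38.p6) covering the 250 bases before each start site matched 7 of the 9 genes in 9 windows. Trf and Clu had no entry. The windows were searched on both strands for an NF-kappaB-like motif (GGGA and CC with any 4 bases between them), a C/EBP-like motif (TTGCNNAA), a STAT-like motif (TTCNNNGAA) and a TATA box (TATAAA). Capitals mark every match to any of these letters. The sequences below read 5′ to 3′ on the strand of the gene and come from chr2:32387740-32387989 (minus strand, Lcn2), chr11:83708754-83709003 (plus strand, Wfdc18) and chr9:111019042-111019291 (plus strand, Ltf).
Lcn2: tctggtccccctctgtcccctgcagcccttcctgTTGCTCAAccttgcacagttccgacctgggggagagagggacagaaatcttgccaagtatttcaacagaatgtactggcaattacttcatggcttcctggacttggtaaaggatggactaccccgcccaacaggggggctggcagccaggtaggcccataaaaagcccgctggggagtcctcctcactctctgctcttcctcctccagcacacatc
Wfdc18: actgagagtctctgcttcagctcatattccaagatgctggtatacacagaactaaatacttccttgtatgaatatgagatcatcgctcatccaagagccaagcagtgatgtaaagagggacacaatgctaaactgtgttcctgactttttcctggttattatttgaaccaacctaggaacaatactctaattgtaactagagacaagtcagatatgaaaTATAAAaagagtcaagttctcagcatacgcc
Ltf: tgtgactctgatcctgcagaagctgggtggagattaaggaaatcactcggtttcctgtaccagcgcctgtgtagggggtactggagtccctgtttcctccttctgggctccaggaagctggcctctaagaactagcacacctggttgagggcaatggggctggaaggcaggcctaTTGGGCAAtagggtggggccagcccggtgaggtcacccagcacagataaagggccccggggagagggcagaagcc

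The C/EBP-like letters stood in the windows of Lcn2, Slpi, Ltf and Cp, and 9.56% of all 32851 mouse promoter windows of the same length held them. The TATA letters stood in the windows of Wfdc18, Muc1 and Cp, against 12.4% of all windows. Cp also had the only NF-kappaB-like match (17.6% of all windows), in the second of its windows, and no window held the STAT-like letters (7.02%). In Cp the TATA letters occurred on both strands and overlapped each other. These are matches of letters and say nothing about binding.

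Sequencing gave between 6781239 and 9100552 counts per sample, at which 3 counts correspond to 0.330 to 0.438 CPM. CPM are the counts of a gene scaled to a common library size, here after TMM normalization, which assumes that most genes do not differ. TIC replicate 3 stood apart. Its root mean square difference in log2 CPM from the other samples was 2.07 to 2.23 over all tested genes, against 1.57 to 2.01 among the other 5 samples. Cd24a, which encodes CD24, lay at 402 to 602 CPM in control cells and 315 to 440 CPM in TICs, and Thy1, which encodes CD90, at 21.6 to 75.9 and 70.3 to 207 CPM, so that RNA of both sort markers was present in both groups and overlapped. All 10 luminal epithelial markers had counts, with a summed level of 7111 to 7572 CPM in control cells and 5101 to 5437 CPM in TICs. The 8 fibroblast markers summed to 2761 to 3153 CPM in control cells and to 7429 to 10739 CPM in TICs. In bulk samples, fewer cells of a type and less RNA per cell cannot be told apart, which holds for every difference below.

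Of the 9 secretory genes, 6 were abundant in both populations and Slpi, Muc1 and Wfdc2 were low, and none passed the test of a difference between TICs and control cells. Together they made up 9701, 9067 and 9400 CPM in control cells (replicates 1 to 3) and 9592, 8302 and 5972 CPM in TICs. The share of Lcn2 in this sum was 41.7% to 46.6% in control cells and 37.1% to 39.9% in TICs. With edgeR's exactTest and a Benjamini-Hochberg adjusted p-value below 0.1, 0 of the 9 genes were called, whereas 1.55% of the 12192 tested genes were called in the same fit. At an unadjusted p below 0.05 the exactTest gave 0 of the 9 and 7.85% of all tested genes. The quasi-likelihood test of edgeR and DESeq2 also called 0 at an adjusted p below 0.1, against 0.41% and 2.51% of all tested genes. At an unadjusted p below 0.05 they gave 0 and 1 of the 9. The share of all tested genes at that unadjusted threshold was not computed for them. The groups overlapped in all 9 genes, while they did not overlap in 15.2% of all tested genes. The log2 fold change was positive in 3 genes and negative in 6, with a median of -0.07 against -0.01 over all tested genes.

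**Figure D1:**
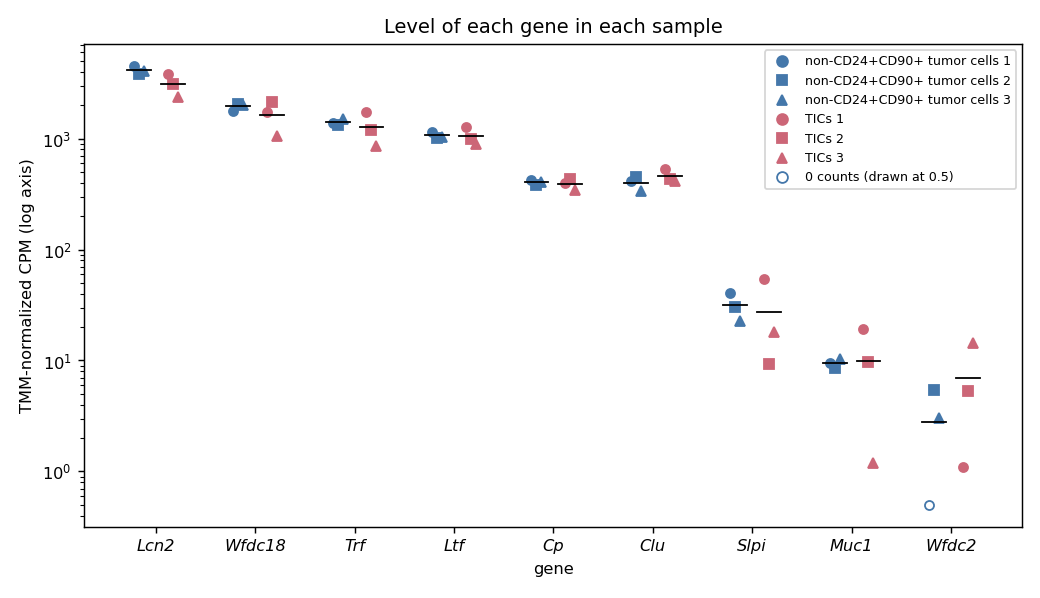
TMM-normalized CPM (log axis) of each gene in the 3 samples of control cells (blue) and the 3 samples of TICs (red), with black bars for the group means and an open symbol for the sample without a count. The groups overlap for every gene, and the spread is wide for Slpi, Muc1 and Wfdc2, whose highest level is 54.3 CPM.

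Among the metal-binding and siderophore-binding products, Lcn2 (chromosome 2, 32384633 to 32388252, minus strand) had the highest CPM of the 9. Per kilobase of all its exons it did not differ from Wfdc18 beyond the spread. With the longest transcript as length it was above Wfdc18 beyond the spread in control cells and not in TICs. Its level was 4518, 3783 and 4048 CPM in control cells and 3824, 3083 and 2368 CPM in TICs. Both TIC replicates 2 and 3 lay below every sample of control cells, whereas TIC replicate 1 lay between replicates 2 and 3 of that group. Its log2 fold change was -0.41 (standard error 0.28, 95% interval -0.97 to 0.14, exactTest adjusted p = 0.904). This interval corresponds to a ratio of TICs to control cells between 0.511 and 1.1. Lcn2 ranked 10th, 10th and 11th among all genes by CPM in control cells and 11th, 18th and 26th in TICs.

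Trf (chromosome 9, 103204001 to 103230444, minus strand) reached 1379, 1314 and 1512 CPM in control cells and 1751, 1199 and 860 CPM in TICs. The highest and the lowest sample were thus both TICs, and the log2 fold change was -0.14 (standard error 0.31, 95% interval -0.75 to 0.46, exactTest adjusted p = 1). The annotation places a second gene of the same strand, Gm20425, over 63.5% of the exonic length of Trf, and Gm20425 had 0 counts in all 6 samples. How HTSeq treated reads that lie in both genes is not given in the sources used here, so that the level of Trf can be too low in all samples alike.

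Ltf (chromosome 9, 111019271 to 111042767, plus strand), a paralog of Trf, had 1154, 1021 and 1039 CPM in control cells and 1278, 988 and 893 CPM in TICs. It again spanned the other group on both sides. Its log2 fold change was -0.02 (standard error 0.27, 95% interval -0.56 to 0.51, exactTest adjusted p = 1).

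Cp (chromosome 3, 19957054 to 20009145, plus strand) was the most even gene of the 9. It had 426, 386 and 409 CPM in control cells and 398, 428 and 341 CPM in TICs, and its highest sample was only 1.25 times its lowest. Its log2 fold change of -0.06 had a standard error of 0.27 and a 95% interval of -0.60 to 0.47 (exactTest adjusted p = 1). This interval rests on the dispersion that edgeR shares between genes and is wider than the samples of Cp alone would give, with an SD of log2 CPM of 0.07 in control cells and 0.17 in TICs. The median SD over all tested genes was 0.58 and 0.73. The exons of Cp share 1.13% of their length with Hps3 on the opposite strand.

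Wfdc18 (chromosome 11, 83709015 to 83711348, plus strand) had the highest CPM of the WAP-domain genes. It stood at 1757, 2069 and 2021 CPM in control cells and at 1731, 2144 and 1058 CPM in TICs. TIC replicates 1 and 2 fell outside the range of the other group by a small margin on either side, and TIC replicate 3 lay far below. The log2 fold change of -0.25 (standard error 0.31, 95% interval -0.85 to 0.36, exactTest adjusted p = 1) became 0.01 without TIC replicate 3.

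Slpi (chromosome 2, 164354070 to 164389095, minus strand) was much lower and more variable, at 40.9, 30.3 and 22.9 CPM in control cells and 54.3, 9.21 and 18.1 CPM in TICs. These levels came from 79 to 494 counts per sample. TIC replicate 1 was above and TIC replicates 2 and 3 were below the whole other group. The log2 fold change was -0.20 (standard error 0.70, 95% interval -1.58 to 1.17, exactTest adjusted p = 1), and it was 0.21 without TIC replicate 2 and -1.18 without TIC replicate 1.

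Wfdc2 (chromosome 2, 164562413 to 164568510, plus strand) was low throughout and close to the detection limit in replicate 1 of both groups. Its counts were 0, 48 and 21 in control cells and 10, 46 and 109 in TICs, which correspond to 0, 5.45 and 3.004 CPM and to 1.099, 5.36 and 14.4 CPM. The 0 counts in replicate 1 of control cells allow a level of up to 0.438 CPM from counting error alone. The log2 fold change was 1.29 with a standard error of 1.73 (95% interval -2.10 to 4.69, exactTest adjusted p = 1), and it ran from 0.21 without TIC replicate 3 to 2.20 without control replicate 2. The samples of each group varied widely, with an SD of log2 CPM of 2.403 in control cells and 1.73 in TICs.

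The extracellular chaperone gene Clu (chromosome 14, 65968483 to 65981547, plus strand) had 416, 450 and 334 CPM in control cells and 535, 435 and 419 CPM in TICs. One sample of control cells lay above 2 of the 3 TIC samples. Its log2 fold change was 0.21 (standard error 0.28, 95% interval -0.34 to 0.77, exactTest adjusted p = 1). Clu kept a positive value, between 0.10 and 0.31, with each sample left out in turn.

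Muc1 (chromosome 3, 89229057 to 89233381, plus strand) had nearly equal levels of 9.49, 8.51 and 10.3 CPM in control cells. Its levels in TICs were 19.1, 9.68 and 1.19 CPM, a 16.1-fold range. The group means of 9.43 ± 0.896 and 9.996 ± 8.97 CPM (SD, n = 3) lay close together, and the log2 fold change of 0.08 had a 95% interval of -2.28 to 2.45 (exactTest adjusted p = 1). The lowest sample was TIC replicate 3 with 9 counts, and the log2 fold change was -0.77 without TIC replicate 1 and 0.63 without TIC replicate 3.

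**Figure D2:**
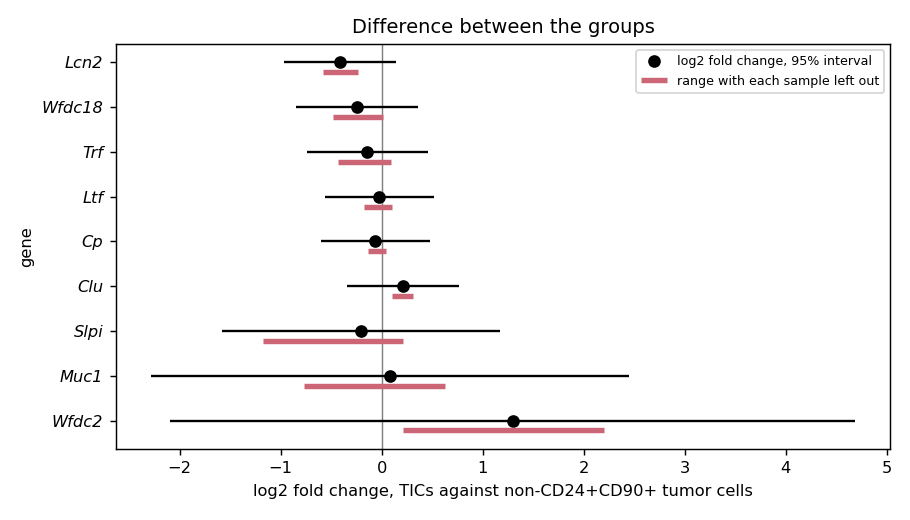
Log2 fold change of TICs against control cells for each gene, with its 95% interval from the negative binomial fit (black) and the range when each of the 6 samples is left out in turn (pink). All 9 intervals hold 0, and they are narrow for the 6 abundant genes and wide for Slpi, Muc1 and Wfdc2.

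For the 6 abundant genes the 95% intervals of the ratio of TICs to control cells reached no lower than 0.511 and no higher than 1.70. Those of the other 3 genes were far wider, from 0.335 to 2.25 for Slpi, from 0.206 to 5.47 for Muc1 and from 0.234 to 25.7 for Wfdc2. An exact two-sided permutation test of log2 CPM gave p = 0.2 for Lcn2 and p between 0.4 and 0.9 for the other genes, where 0.1 is the smallest p that 3 samples against 3 allow.

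The CPM above are not corrected for gene length, and levels per kilobase of exon gave another order. In control cells the order was Wfdc18 (1598 ± 138 CPM per kb), Lcn2 (1569 ± 142), Trf (422 ± 30), Ltf (310.5 ± 20.9), Clu (116 ± 17), Cp (42.6 ± 2.1), Slpi (26.6 ± 7.7), Muc1 (4.02 ± 0.38) and Wfdc2 (2.47 ± 2.39; SD, n = 3). Wfdc18 and Lcn2, and likewise Muc1 and Wfdc2, did not differ beyond their spread, and the other neighbors in this order did. In TICs the first 7 places were the same, from Wfdc18 (1348 ± 449 CPM per kb) and Lcn2 (1179 ± 277) down to Slpi (23.1 ± 20.2), and Wfdc2 (6.10 ± 5.95) stood above Muc1 (4.26 ± 3.82) within their spread. In TICs the neighbors Wfdc18 and Lcn2, Trf (383 ± 135) and Ltf (305 ± 58), Cp and Slpi, and Slpi and Wfdc2 overlapped as well. With the longest transcript in place of the union of exons, Lcn2 came first in both groups, at 2996 CPM per kb in control cells and 2250 CPM per kb in TICs, and Wfdc18 second. These 2 genes then differed beyond their spread in control cells and overlapped in TICs.

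The SD of log2 CPM was larger in TICs than in control cells for 7 of the 9 genes, Clu and Wfdc2 being the exceptions. TIC replicate 3 was the lowest of the 6 samples for Lcn2, Wfdc18, Cp, Muc1, Trf and Ltf, and the highest for Wfdc2. TIC replicate 1 was the highest for 5 genes, Clu, Slpi, Muc1, Trf and Ltf. Without TIC replicate 3 the log2 fold change was -0.23 for Lcn2, 0.09 for Trf, 0.10 for Ltf and 0.04 for Cp. In TIC replicate 3 the endothelial markers summed to 693 CPM, against 174 and 272 CPM in TIC replicates 1 and 2 and 127 to 132 CPM in control cells, and all 7 of these markers were detected. Fabp4, a fatty acid binding protein of adipocytes and capillary endothelium, reached 1225 CPM there, against 192 and 494 CPM in the other TICs, while Adipoq, Plin1 and Lep, which define adipocytes, had no count in any sample and Cidec had 18 counts in TIC replicate 2 alone. The part of these cells in the low values of TIC replicate 3 was not tested.

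**Figure D3:**
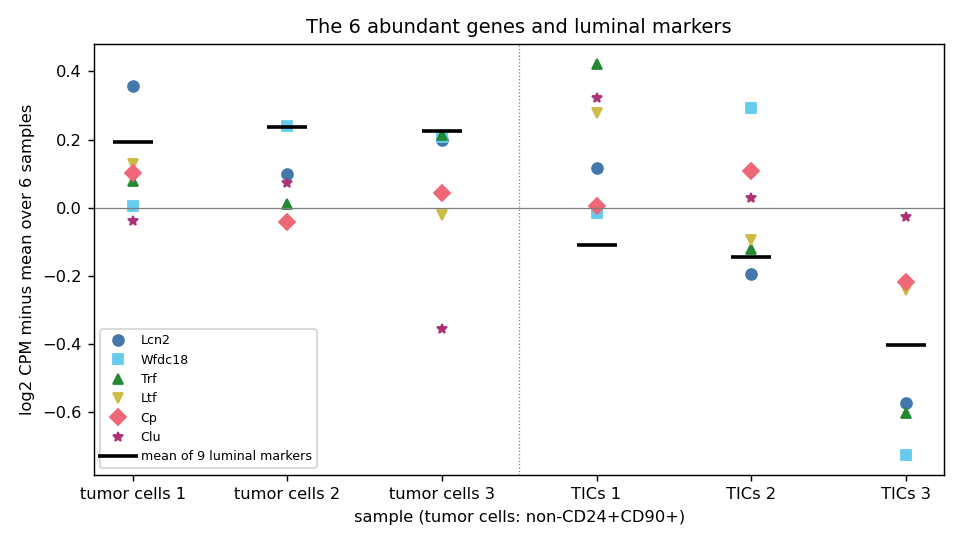
Log2 CPM minus its mean over the 6 samples for the 6 abundant genes (colored symbols) and for the mean of the 9 luminal epithelial markers that passed the filter (black bars), by sample. In TIC replicate 3 all 6 genes lie below 0, and the luminal mean is below 0 in every TIC sample.

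The luminal epithelial markers offer a second scale, since mammary epithelium is a known source of these products. Which cells of the samples made the RNA of the 9 genes was not tested. The mean log2 CPM of the 9 tested luminal markers was 8.95, 8.995 and 8.98 in control cells and 8.65, 8.61 and 8.36 in TICs, a difference of -0.44 (exact two-sided permutation p = 0.1, the smallest possible). Each of the 9 had a negative log2 fold change and 0 were called, where 1.55% of all tested genes were called. Relative to this mean, a scale chosen after the values had been seen, Lcn2 differed by 0.00 between the groups. Clu, Ltf and Cp lay higher in every TIC sample on this scale, by 0.65, 0.40 and 0.37, each with an exact permutation p of 0.1. On the same scale 16.9% of all tested genes lay higher in every TIC sample, so that 3 of 9 is read as a description. Wfdc18, Trf, Slpi, Muc1 and Wfdc2 overlapped between the groups on this scale too.

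Lcn2, Ltf and Slpi are also stored in neutrophils, so that leukocyte markers were read beside them. Of 10 neutrophil markers, 5 had no count in any sample (Ngp, Ly6g, Retnlg, Mpo and Elane), and S100a9, Camp, Csf3r and Cxcr2 had counts in 1 sample each (11, 23, 77 and 2 counts). S100a8 alone was present throughout, at 68.8 to 118 CPM in control cells and 77.7 to 147 CPM in TICs. Ptprc, which encodes CD45, was counted 33 times in control replicate 1 and had 0 counts in the other 5 samples. The whole list of 6 leukocyte markers summed to 388 to 602 CPM in control cells and 282 to 354 CPM in TICs, with Lcp1, the actin-bundling L-plastin, at 383 to 579 CPM and 268 to 291 CPM. Laptm5, a lysosomal protein gene of leukocytes, went the other way, with 0, 6.35 and 13.7 CPM in control cells and 44.5, 16.8 and 14.0 CPM in TICs (exactTest adjusted p = 0.89). The 8 macrophage markers summed to 101 to 118 CPM in control cells and 152 to 252 CPM in TICs. Of these, 7 were tested and Lyz2, the lysozyme gene of myeloid cells, was called higher in TICs (log2 fold change 2.68, standard error 0.63, exactTest adjusted p = 0.0125). Of all tested genes 1.36% were called higher. The log2 fold change was positive in 4 of the 7 markers and negative in 3 (Csf1r, Cd68 and Cd14). Csf1r had a mean of 4.99 CPM in control cells and 1.54 CPM in TICs, and Cd68 10.8 and 8.68 CPM. Lyz2, C1qa and C1qb lay higher in all TIC samples, as did 7.69% of all tested genes. The part of such cells in the levels of the 9 genes was not tested.

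**Figure D4:**
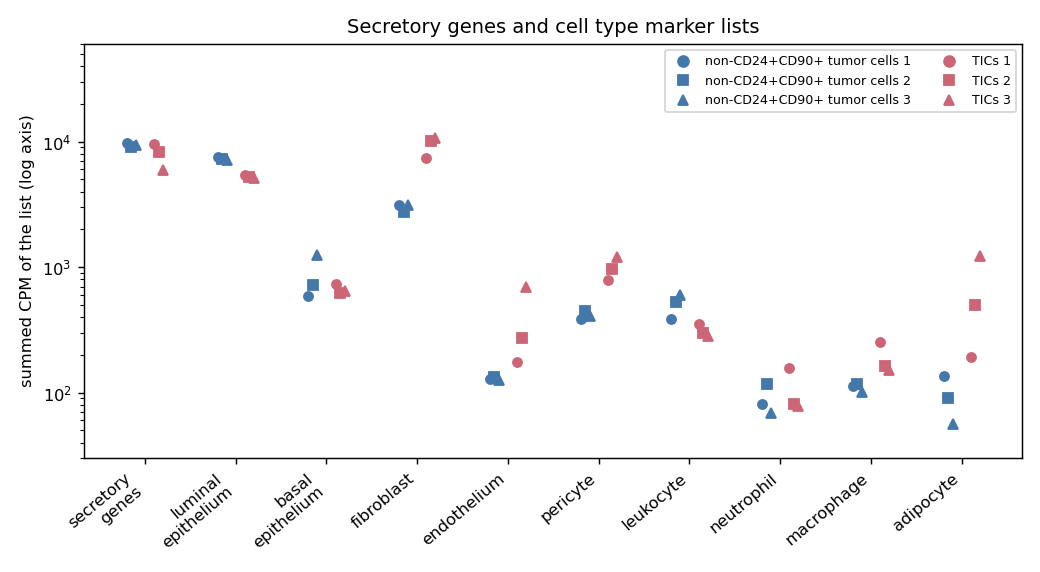
Summed CPM (log axis) of the 9 secretory genes and of 9 lists of cell type markers in each sample of control cells (blue) and TICs (red). Fibroblast, pericyte, endothelial, macrophage and adipocyte sums are higher in all TIC samples, and luminal and leukocyte sums are lower in all. Within the macrophage list the log2 fold change is positive in 4 tested genes and negative in 3. The leukocyte sum is mostly Lcp1, while Laptm5 of the same list went the other way, and the adipocyte sum is nearly all Fabp4. The neutrophil sum, which is nearly all S100a8, overlaps between the groups.

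No other acute-phase gene passed the test. Of 31 listed, 20 had a count, 13 were tested and 0 were called, with a median log2 fold change of 0.11. The serum amyloid A genes Saa1 and Saa2 had the highest CPM. Saa1 stood at 899, 873 and 558 CPM in control cells and at 1752, 608 and 288 CPM in TICs, so that a single TIC sample exceeded the other group and another fell below it. Saa2, a close copy of Saa1 whose reads can be lost where they do not map uniquely, followed the same order of samples in TICs, with 1310, 367 and 170 CPM. Mt1, a metallothionein, had 529 ± 79 CPM in control cells and 433 ± 113 CPM in TICs (SD, n = 3). All TIC samples lay higher in 2 of the 13 tested genes (C4b and Serpina3n) and lower in 0. Among all tested genes 7.69% and 7.55% did so, and these counts are read as a description. C4b had 115, 160 and 105 CPM in control cells and 248, 328 and 184 CPM in TICs (exactTest adjusted p = 0.138). Serpina3n had 49.18, 49.02 and 52.78 CPM against 110.2, 62.26 and 86.95 CPM (exactTest adjusted p = 0.636). Both were named after their values were seen.

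Regulators of the acute-phase response were widely detected. Of 33 listed, 29 were tested and 0 called, where 1.55% of all tested genes were called. The median log2 fold change was -0.09. All TIC samples lay higher in 1 of the 29 genes (Rela) and lower in 3 (Rel, Tnf and Ehf). Among all tested genes 7.69% and 7.55% did so, and these counts are read as a description. Rel had 2.48, 9.87 and 9.30 CPM in control cells and 0 counts in TICs (exactTest adjusted p = 0.107). Tnf had 16.3, 6.58 and 10.2 CPM against 1.32, 0 and 2.24 CPM (exactTest adjusted p = 0.754). Cebpb, a C/EBP factor induced by IL-6, had 740 ± 107 CPM in control cells and 765 ± 143 CPM in TICs. Cebpd had 399 ± 114 and 339 ± 32 CPM, and the TNF receptor gene Tnfrsf1a 351 ± 48 and 420 ± 82 CPM (SD, n = 3 for each).

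Receptors and binding partners held the called genes of this neighborhood. Of 19 listed, 17 had a count, 11 were tested, 2 were called higher in TICs and 0 lower, against 1.36% and 0.189% of all tested genes. Lrp1, an endocytic receptor that takes up lactoferrin among many other ligands, had 144, 186 and 261 CPM in control cells and 439, 385 and 554 CPM in TICs. All TIC samples lay above the other group (log2 fold change 1.22, standard error 0.32, exactTest adjusted p = 0.021). Mmp14, a membrane metalloproteinase that can shed MUC1, had 1113, 1069 and 1114 CPM in control cells and 1811, 2875 and 3133 CPM in TICs. The log2 fold change was 1.25 (standard error 0.29, exactTest adjusted p = 0.0064). The study had already reported Mmp14 as higher in TICs of these samples. The list of partners was chosen with earlier results known, so that 2 of 11 is read as a description. Over the alternatives the adjusted p ran from 0.00121 to 0.254 for Lrp1 and from 8.08e-07 to 0.135 for Mmp14. Lrp1 was not called by the quasi-likelihood test of edgeR (adjusted p = 0.124), nor with edgeR's exactTest without control replicate 1 (0.254) or 2 (0.243), and Mmp14 was not called by exactTest without control replicate 2 (0.135). Both genes are also expressed by fibroblasts, whose summed markers were higher in the same samples, and the part of these cells was not tested.

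The receptors closest to the secreted products were scarce. Slc22a17, a receptor of lipocalin 2, had 26.4 ± 11.5 CPM in control cells and 32.0 ± 9.0 CPM in TICs (SD, n = 3). Lrp2, a second receptor of lipocalin 2 and of clusterin, had 12 counts in TIC replicate 1 and 0 in the other 5 samples. Lrp8 had 5.11, 2.84 and 2.15 CPM in control cells and 0.440, 0 and 0.396 CPM in TICs (exactTest adjusted p = 0.825). It was the 1 tested partner lower in all TIC samples, while 2 were higher in all. Vldlr had 24.0 ± 4.1 CPM in control cells and 36.1 ± 10.4 CPM in TICs (SD, n = 3). Tfrc, the transferrin receptor, had 9.92, 5.11 and 8.87 CPM in control cells and 24.7, 25.8 and 0.264 CPM in TICs, where 1 sample had 2 counts and the other 2 lay above the whole other group (log2 fold change 1.09, standard error 1.22, exactTest adjusted p = 1). Mmp9, whose protein forms a complex with lipocalin 2, had no count in 1 sample of each group and at most 80 counts elsewhere. Elane, the elastase that SLPI inhibits, was without counts in all samples. Anxa2, a binding partner of SLPI, and Grn, the progranulin that SLPI protects from cleavage, were abundant and even, with log2 fold changes of 0.03 and -0.01.

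Genes of iron and copper handling were next. Of 21 listed, 15 were tested and 0 called, where 1.55% of all tested genes were called. The median log2 fold change was 0.05. The ferritin heavy chain gene Fth1 had 593 ± 39 CPM in control cells and 614 ± 151 CPM in TICs. Aco1, which encodes the iron regulatory protein that senses cellular iron, had 191 ± 24 and 150 ± 25 CPM, and the copper importer gene Slc31a1 had 181 ± 38 and 138 ± 50 CPM (SD, n = 3 for each). In this list 3 of the 15 tested genes were lower in all TIC samples without passing the test, against 7.55% of all tested genes. This count is read as a description. The 3 genes were Aco1 (exactTest adjusted p = 0.985), the melanotransferrin gene Meltf (log2 fold change -0.67, adjusted p = 0.735) and the iron exporter gene Slc40a1. Slc40a1, named after its values were seen, had 13.0, 18.4 and 11.7 CPM in control cells and 1.43, 0 and 0.924 CPM in TICs (exactTest adjusted p = 0.356).

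Relatives by sequence were mostly silent among the WFDC genes and lipocalins, while 8 of 14 mucins had a count. Few were tested and none was called, where 1.55% of all tested genes were called. Among 18 other WFDC and WAP genes, 7 had a count, 3 were tested and 0 were called, and Wfdc12 had the highest CPM, with 30.7 ± 15.7 CPM in control cells and 25.1 ± 26.8 CPM in TICs. Wfdc3 had 5.58 ± 5.97 and 14.9 ± 7.6 CPM. Wap, the whey acidic protein gene that names the fold, had 4, 49 and 0 counts in control cells and 192, 21 and 0 counts in TICs. Of 18 other lipocalins 2 were tested and 0 called. Apod, the apolipoprotein D gene, had 124, 143 and 126 CPM in control cells and 158, 239 and 415 CPM in TICs, without overlap (log2 fold change 1.05, standard error 0.36, exactTest adjusted p = 0.176). Among the other mucins, of which 14 of 16 listed were in the tables, 3 were tested and 0 called. Muc15 had 58.6 ± 3.8 and 90.0 ± 21.1 CPM and Muc20 32.7 ± 12.1 and 14.2 ± 2.4 CPM in control cells and TICs (SD, n = 3). The groups did not overlap in either gene, and the exactTest adjusted p was 0.823 and 0.768. Emcn, which is also on the list of endothelial markers, had 38.2 ± 8.3 CPM in control cells and 86.1 ± 45 CPM in TICs (SD, n = 3). Its groups overlapped (log2 fold change 1.17, exactTest adjusted p = 0.35).

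Other mammary secretory products gave no call. Of 24 listed, 17 were tested and 0 called, where 1.55% of all tested genes were called, so that this count is read as a description. The median log2 fold change was -0.28. Csn3, kappa-casein, had 2286 ± 241 CPM in control cells and 2334 ± 878 CPM in TICs. Mfge8, the milk fat globule protein lactadherin, had 2168 ± 288 and 1693 ± 227 CPM, and Spp1, osteopontin, 839 ± 58 and 1020 ± 111 CPM (SD, n = 3 for each). Spp1 was the only tested gene of this list that was higher in all TIC samples (exactTest adjusted p = 0.999), and 2 were lower in all. Of all tested genes, 7.69% were higher and 7.55% lower in all TIC samples. Wfdc18 and Csn3 had the same order of samples among TICs, with replicate 2 highest and replicate 3 lowest.

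The genes with the most similar pattern over the 6 samples were sought among the 8741 other genes at 10 CPM or more, by the root mean square difference of centred log2 CPM. Gpi1, Prmt5 and Rpl37 were nearest to Lcn2 at 0.07, Lamp1 was nearest to Cp at 0.05 and Rpl8 to Ltf at 0.06. Ngdn was nearest to Trf at 0.05, Gaa to Wfdc18 at 0.07 and Lmna to Clu at 0.07. Among the 9 genes themselves, Cp and Ltf were nearest to each other at 0.14 and Lcn2 and Trf at 0.18, while no gene came closer than 1.91 to Wfdc2.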

How the data were processed

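RNA-seq counts of 6 samples, 3 per group, were analysed, and replicate numbers follow the order of the samples and were not used to pair them. Per the study's methods and the submitters' processing notes, reads were trimmed with Trimmomatic 0.32, aligned to GRCm38 with STAR 2.4.0, restricted to unique alignments with SAMtools 1.1 and counted with HTSeq (annotation release and strand setting not given in the sources used here). The authors deposited raw counts per Ensembl gene. Symbols, positions and exon lengths came from GENCODE M21 (40340 of 41388 genes, and 0.133% of counts lay in the others). The filter kept 12192 genes above 1 CPM in 3 or more samples, a value the methods do not state. TMM factors, tagwise dispersions and exactTest of edgeR 4.0.16 (R 4.3.3) were used, of which the methods name edgeR, exactTest and the Benjamini-Hochberg adjustment and not TMM or tagwise dispersions. P-values were adjusted over all tested genes with a threshold of 0.1. Standard errors and 95% intervals came from the negative binomial fit with these dispersions. Counting floors cover counting error only. Likeness of genes and distances between samples used log2 CPM with a prior count of 2. DESeq2 1.42.0, the quasi-likelihood test, other normalizations and filters, and each sample left out were alternatives. The scripts were tested on simulated data. Genes named are the 9 genes, called genes and up to 3 of the most abundant genes of each other list, and partners of the 9. Others were named after their values were seen. The genes and lists were chosen with earlier results of these data known.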

Additional observations from a re-analysis of the deposited data

How the results depend on the processing

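None of the 9 genes was called in any alternative fit or at an adjusted p-value below 0.05. The sign of a log2 fold change turned in 18 of 126 alternative values, in Lcn2, Wfdc18, Slpi, Cp, Muc1, Trf and Ltf. Ltf became 0.000229 with DESeq2 and 0.000167 with RLE size factors. On the scale of luminal markers, added after the data were seen, the values were 0.001 for Lcn2, 0.137 for Wfdc18, 0.368 for Cp, -0.129 for Muc1, 0.237 for Trf and 0.398 for Ltf. Leaving out each sample in turn gave -0.58 to -0.23 for Lcn2, 0.212 to 2.20 for Wfdc2, 0.0995 to 0.306 for Clu, -0.481 to 0.0112 for Wfdc18, -1.18 to 0.209 for Slpi, -0.136 to 0.0418 for Cp, -0.773 to 0.629 for Muc1, -0.43 to 0.0926 for Trf and -0.173 to 0.101 for Ltf.

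Of all tested genes, 189 were called in the exactTest fit, 50 by the quasi-likelihood test, 306 by DESeq2, 112 without a filter, 116 at an adjusted p-value below 0.05, and 72 (without control replicate 3) to 323 (without TIC replicate 1) with a sample left out. Of the 92 tested genes in the other lists (relatives, acute-phase, metal handling, partners, regulators and mammary secretory genes), 2 were called, against 1 by the quasi-likelihood test, 6 by DESeq2, 4 with trended dispersions and 0 (without control replicate 2) to 6 (without TIC replicate 1) with a sample left out. The causes were not tested. With the longest transcript as length, levels per kb were 2996 for Lcn2, 2126 for Wfdc18, 220.8 for Clu, 35.8 for Slpi, 89.2 for Cp, 545 for Trf and 390.5 for Ltf in non-CD24+CD90+ tumor cells, and 2250 for Lcn2, 256 for Clu, 85.3 for Cp and 384 for Ltf in TICs. No paired analysis was possible because the labels give no number shared between the groups, although pools of both groups may come from the same mice. Slpi, Muc1 and Wfdc2 had fewer counts than the abundant genes and a large spread, and their intervals are wide.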
